A study of Mus musculus with 7 samples.

Results

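The LSK libraries numbered 3, 1 of wild-type and 1 of Uhrf1-/- cells, were compared with the 4 LSK libraries numbered 1 and 2, with genotype as a covariate. These 6 of the 7 libraries of the series are RNA sequencing libraries from fetal livers of C57BL/6 mice at 13.5 days post coitum. The LSK fraction, free of lineage markers and positive for both Sca-1 and Kit, holds the blood-forming stem cells and multipotent progenitors. The seventh library, of wild-type LK cells (Kit without Sca-1, further along in differentiation), is set beside them as a single value without a test. The wild-type group carried no named allele, and the Uhrf1-/- group is labelled as lacking Uhrf1, which encodes a protein that brings the maintenance DNA methyltransferase to replicating DNA; how the gene was deleted is not stated in the labels. Cells were sorted in 2 rounds to a stated purity above 95%. The series text speaks of 3 independent experiments, but no label says that a replicate number marks an experiment, a day, an animal or a litter. The libraries numbered 3 may therefore share more than a number, and the p-values reflect only how these 6 libraries vary, which may be technical.

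Immediate-early genes are transcribed within minutes of a stimulus without new protein synthesis. Mitogen-activated protein kinases, calcium and cyclic AMP reach them through the serum response factor and CREB, and their products include the AP-1 subunits of the Fos and Jun families and the phosphatases and RNA-decay factors that end the response. They are known to be induced when solid tissue is dissociated and cells are sorted, as are the heat-shock proteins of the HSP70 family and the chemokines driven by NF-kB. Fetal liver is also rich in macrophages that sit at the centre of erythroblastic islands, and the transcripts of the complement C1q chains are among the most abundant in macrophages. The labels do not describe how the cells of each replicate were handled.

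Depth was similar across libraries, with estimated read totals of 16803481 to 25803042 behind deposited count sums of 15556959 to 21017402. The sort markers were present: Ly6a, which encodes Sca-1, had 56.8, 34.3, 84.6 and 96.4 FPKM in the numbers 1 and 2 (wild-type pair first, then the Uhrf1-/- pair), 26.4 and 36.9 FPKM in the wild-type and Uhrf1-/- libraries numbered 3, and 0.321 FPKM in the LK library. Kit stood between 24.4 and 56.6 FPKM in all 7. Within each genotype Ly6a was lowest in replicate 3, and the difference did not pass the threshold (-0.99, adjusted p = 0.091). Kit did not pass either (-0.16, adjusted p = 0.78). Uhrf1 (Entrez gene 18140, chromosome 17, 56303337 to 56323486 of GRCm38) went with the genotype labels. It had 63.0, 66.8 and 113 FPKM in the wild-type and 10.2, 8.78 and 18.6 FPKM in the Uhrf1-/- libraries in the order of their numbers. Within each genotype replicate 3 was the highest, but the difference did not pass the threshold (0.85, adjusted p = 0.061). With the transcript length and GC trends described below removed, Uhrf1 was called higher (0.83, adjusted p = 0.040). Wild-type replicate 1 and Uhrf1-/- replicates 1 and 2 resembled each other most (Pearson r of 0.982 to 0.994 across 10608 genes, log2 scale), the replicate 3 pair reached 0.964, and wild-type replicate 2 correlated with the 5 others at 0.898 to 0.951. No library was a copy of another: the closest pair, Uhrf1-/- replicates 1 and 2, differed by a median chi-square of 3.32 over 12408 genes, where wild-type replicate 3 against Uhrf1-/- replicate 3 gave 17.0. The share of count values on ribosomal protein genes was 4.67% in wild-type replicate 2 and 10.4% to 15.3% in the other 6 libraries.

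Replicate 3 differed from replicates 1 and 2 in 415 of 10608 genes tested (3.91%), of which 136 were higher (1.28%) and 279 lower (2.63%). A gene was called at an adjusted p below 0.05 in limma's moderated test on log2(FPKM + 1), where FPKM is a read density scaled to transcript length and library size. Differences are given on that log2 scale, as replicate 3 minus replicates 1 and 2 averaged over genotypes, and the scale understates the change of low genes. On this scale 67 called genes were lower by more than 2 and 3 were higher by as much; genes such as Pigr, which are low in replicates 1 and 2, are compressed by the pseudocount (3.17, and 5.49 with a pseudocount of 0.1). The 12 genes lower by more than 4 were Klf2, Tgfb1, Fos, Dusp1, Zfp36, Egr1, Kcnk12, Jund, C1qc, 1110008F13Rik, Dapk3 and Junb. The median difference of all tested genes was -0.05, with 53.9% of genes below 0. Every called gene had the same sign in both genotypes. In 413 of the 415 both replicate 3 libraries lay outside the range of the 4 others, against 32.2% of all tested genes. The genes were called for their difference between these same libraries, and that selection favours equal signs and separation. Neither is therefore separate support for the difference. The count of calls rested on each replicate 3 library: without wild-type replicate 3, 1 gene was called, and without Uhrf1-/- replicate 3, 8 were, although all 415 genes kept their sign in both cases. The kept sign follows from the equal signs in both genotypes, since a fit without 1 replicate 3 library takes its difference from the other genotype alone. Leaving out wild-type replicate 1 or 2 raised the count to 1831 or 1575, and leaving out Uhrf1-/- replicate 1 or 2 lowered it to 101 or 67. Of 55 named genes that were called, 0 were called without wild-type replicate 3 and 7 without Uhrf1-/- replicate 3. On count values scaled to equal totals 495 genes were called, and the split moved to 227 higher and 268 lower.

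**Figure D1:**
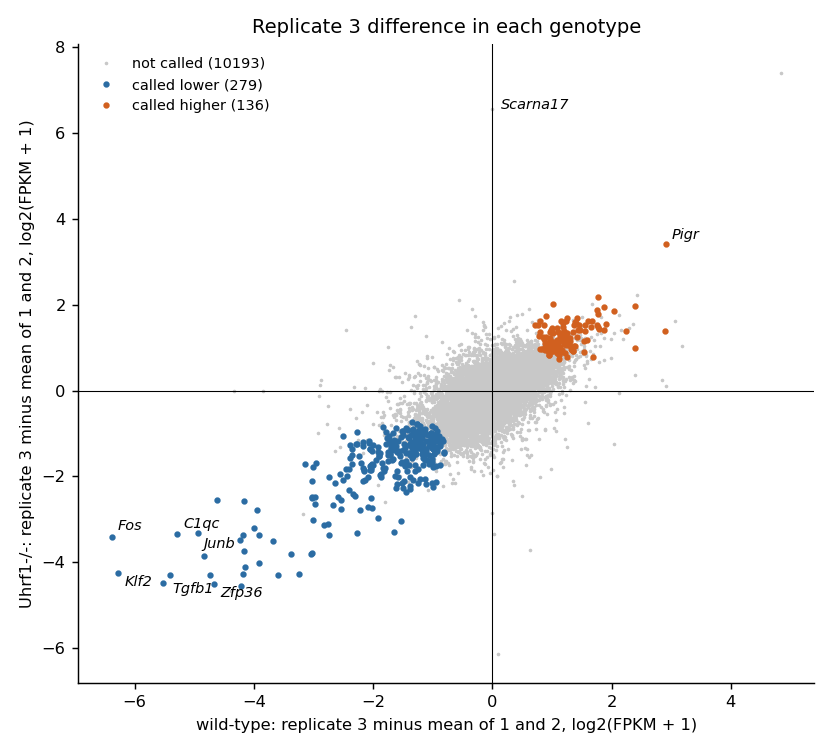
Each point is a tested gene, with the wild-type difference between replicate 3 and the mean of replicates 1 and 2 on the x axis and the Uhrf1-/- difference on the y axis, both in log2(FPKM + 1). Called genes (blue lower, orange higher) lie in the lower left and upper right quadrants, and the lower ones reach past -6 in wild-type cells; Scarna17 lies on the vertical line through 0.

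The immediate-early genes were the list with the lowest median. Of 54 members 44 were tested, the other 10 having a mean below 1 FPKM, and 24 were called, all lower in replicate 3, against 2.63% of all tested genes called lower. The median difference of the 44 was -1.26, with 39 below 0, against -0.05 for all tested genes. Without wild-type replicate 3 the median was -1.32 and 0 were called, and without Uhrf1-/- replicate 3 it was -1.28 and 5 were called. Without Uhrf1-/- replicate 2, 14 were called, and without a filter on low values 12 of 53, with a median of -0.85. Fosb, Atf3, Klf4 and Plk2 passed that filter only through replicates 1 and 2, where they are higher. Summed over the list, the level was 3062, 3508, 2837 and 2591 FPKM in replicates 1 and 2 (wild-type pair first), 632 and 596 FPKM in replicate 3, and 554 FPKM in LK cells. In whole-population libraries, less RNA per cell and fewer cells that carry it cannot be told apart. The same order of libraries, wild-type before Uhrf1-/- within each set, is used below.

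Of 7 AP-1 subunit genes of the Fos and Jun families 5 were tested, and all 5 were called lower. Fos (Entrez gene 14281, chromosome 12, 85473890 to 85477274 of GRCm38), whose product pairs with Jun proteins to form AP-1, stood at 237, 278, 167 and 150.2 FPKM in replicates 1 and 2 and at 2.09 and 14.0 FPKM in replicate 3, a difference of -4.90 (SE 0.58, adjusted p = 0.0066). Junb (Entrez gene 16477, chromosome 8, 84976909 to 84978748), a Jun family member that also restrains stem cell proliferation, stood at 198, 188, 250.4 and 215 FPKM against 5.31 and 22.4 FPKM (-4.13, SE 0.36, adjusted p = 0.0023). In both genes the 4 libraries of replicates 1 and 2 were all far above the replicate 3 pair, and within that pair the Uhrf1-/- library was the higher. Jund, usually the most constant of the Jun genes, stood at 405, 392, 341 and 283 FPKM against 12.99 and 20.5 FPKM (-4.34, SE 0.29, adjusted p = 0.00065). Jun itself stood at 174, 206, 159.8 and 149 FPKM against 9.57 and 25.1 FPKM (-3.37, SE 0.36, adjusted p = 0.0050). Fosb was the lowest of the 5, at 26.9, 8.28, 19.9 and 18.9 FPKM against 0.0675 and 0.976 FPKM (-3.64, SE 0.42, adjusted p = 0.0066). Fosl1 and Fosl2 were too low to test. Fosl2 stood at 1.03, 0.773, 0.887 and 0.689 FPKM against 1.32 and 0.801 FPKM, so its groups overlapped.

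Among the other transcription factors of the list, Klf2 (Entrez gene 16598, chromosome 8, 72319062 to 72321654), a zinc finger factor known for keeping lymphocytes quiescent and for responding to flow in endothelium, had the largest difference of all called genes on the log2(FPKM + 1) scale; with a pseudocount of 0.1 C1qc, at -6.64, and Hspa1a, at -6.51, went past it. It stood at 146, 117, 58.7 and 58.6 FPKM in replicates 1 and 2 and at 0.708 and 2.11 FPKM in replicate 3 (-5.27, SE 0.42, adjusted p = 0.0013). Egr1, a zinc finger factor induced through the serum response factor, stood at 46.2, 79.9, 48.7 and 49.97 FPKM against 1.31 and 1.57 FPKM (-4.51, SE 0.27, adjusted p = 0.00064). The libraries of each set were close to each other for Egr1, which left a gap of more than an order of magnitude between the sets. Klf6 was at 26.1, 41.3, 14.4 and 15.6 FPKM against 4.95 and 2.77 FPKM (-2.30, adjusted p = 0.0066), and Klf4 at 6.27, 2.004, 1.42 and 1.91 FPKM against 0.157 and 0 FPKM (-1.71, adjusted p = 0.046). The orphan nuclear receptor gene Nr4a1, a readout of receptor signalling, was lower as well (-1.89, adjusted p = 0.0078), as were the stress factor Atf3 (-1.62, adjusted p = 0.024) and the small Maf gene Maff (-1.25, adjusted p = 0.031). Nr4a2, at 0.578, 0.417, 1.16 and 1.03 FPKM against 0.848 and 2.28 FPKM, did not pass (0.48, adjusted p = 0.21).

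Genes whose products dampen the response were partly among the called members. Dusp1, Dusp2 and Dusp5 encode phosphatases that switch off mitogen-activated protein kinases in the nucleus. Dusp1 stood at 100.1, 339, 98.4 and 104 FPKM in replicates 1 and 2 and at 3.39 and 4.21 FPKM in replicate 3 (-4.85, SE 0.48, adjusted p = 0.0036). Dusp2 stood at 305, 269, 215 and 220.3 FPKM against 34.4 and 37.3 FPKM (-2.77, SE 0.24, adjusted p = 0.0023). Dusp5 stood at 60.8, 41.0, 17.3 and 20.8 FPKM against 1.85 and 0.503 FPKM (-3.95, SE 0.25, adjusted p = 0.00065). Dusp2 thus kept the highest level of these genes in replicate 3, and Dusp5 had the lowest. Zfp36, whose product tristetraprolin binds AU-rich elements and speeds the decay of cytokine transcripts, stood at 248, 388, 210.3 and 196 FPKM against 11.2 and 7.95 FPKM (-4.59, SE 0.25, adjusted p = 0.00050). Its relative Zfp36l1 differed less (-1.12, adjusted p = 0.042), and Zfp36l2 did not pass (-0.29, adjusted p = 0.50). Inhibitors of receptor tyrosine kinase signalling did not pass either, with Spry1 at -1.49, adjusted p = 0.055, Spry2 at -0.70, adjusted p = 0.29, Spred1 at 0.04, adjusted p = 0.94 and Spred2 at 0.39, adjusted p = 0.35. Ppp1r15a, which encodes the regulatory subunit that reverses the phosphorylation of eIF2alpha, stood at 40.1, 70.4, 37.1 and 36.9 FPKM against 5.75 and 10.1 FPKM (-2.39, adjusted p = 0.015). Ier2, Ier3, Ier5, Btg2, Plk2 and Rhob completed the called members, with differences from -2.81 for Ier2 to -1.22 for Ier5, and in each the 6 libraries separated without overlap.

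Several members of the list were not called. Myc stood at 117, 150.2, 162 and 164 FPKM in replicates 1 and 2 and at 163 and 97.8 FPKM in replicate 3 (-0.22, adjusted p = 0.72), so the groups overlapped. Mcl1 (-0.34, adjusted p = 0.46), Srf (0.23, adjusted p = 0.68), Dusp6 (-0.47, adjusted p = 0.47) and Klf10 (-0.05, adjusted p = 0.96) did not pass either. The 5 tested members with a difference above 0 were Nr4a2, Srf, Hbegf, Spred1 and Spred2, none of them called. Genes outside the list that are known to respond early were also called lower, chosen here after their values were seen: Egr4 (listed at 0 in both replicate 3 libraries, adjusted p = 0.0032), the G protein regulator genes Rgs1 (-3.43, adjusted p = 0.0014) and Rgs2 (-1.70, adjusted p = 0.0066), and Phlda1 (-2.98, adjusted p = 0.0034). Egr4 passed the filter on low values only through replicates 1 and 2.

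**Figure D2:**
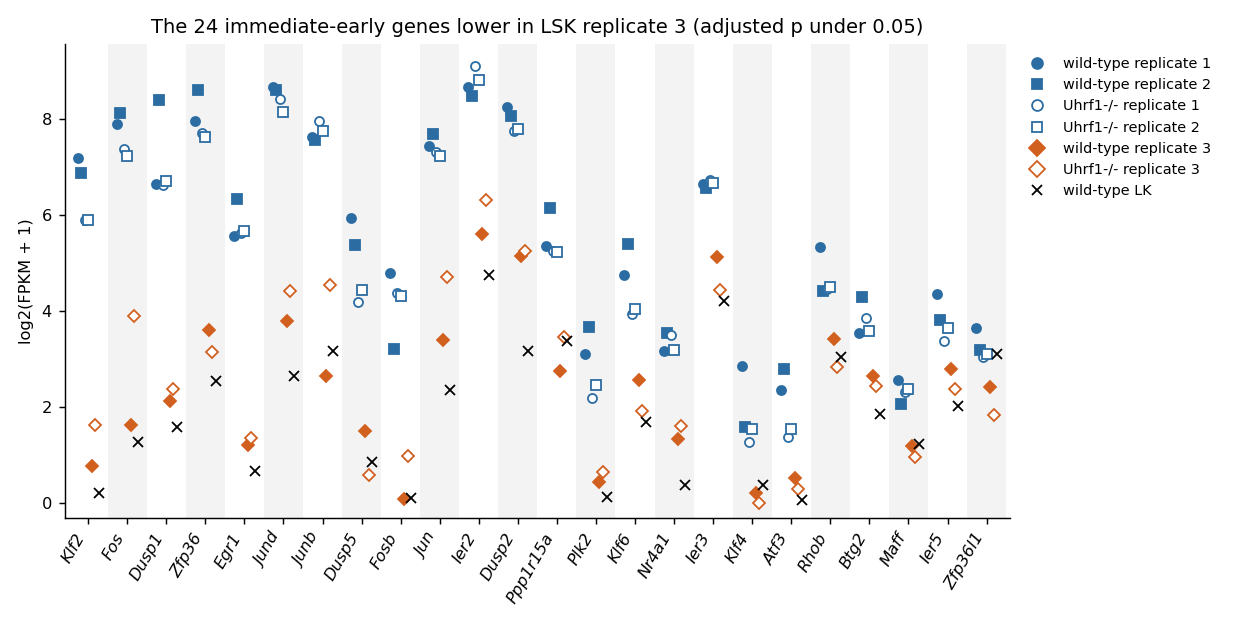
Level of the 24 called immediate-early genes in each library as log2(FPKM + 1), ordered by the size of the difference; blue symbols are replicates 1 and 2, orange diamonds replicate 3, filled for wild-type and open for Uhrf1-/- cells, and the black cross is the LK library. In every gene both orange diamonds lie below all 4 blue symbols, and in most the LK library lies at or below them.

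Promoters of 8 called genes are shown because each holds a motif searched for in its list. Each is the 300 bases from 250 before to 50 after the RefSeq transcript start, from the RefSeq annotation of GRCm38.p6, read along the gene's strand. Capitals mark only matches to the motif searched for in the gene's own list, as named below. Stretches in lower case can hold other motifs. The first 3 hold a cyclic AMP response element (TGACGTCA), the next 2 serum response elements (the CArG box), the next 2 a heat-shock element (GAANNTTC, at 2 places in Hspb1), and the last overlapping matches to the NF-kB site. Both strands were searched; a TGACGTCA match holds no AP-1 site (TGANTCA). The windows are Dusp1 at chr17:26508423-26508722, minus strand; Plk2 at chr13:110394794-110395093, plus strand; Ppp1r15a at chr7:45526219-45526518, minus strand. They continue with Dusp5 at chr19:53528895-53529194, plus strand; Zfp36 at chr7:28379179-28379478, minus strand; Hspa1a at chr17:34972107-34972406, minus strand. The last are Hspb1 at chr5:135887669-135887968, plus strand and Cxcl2 at chr5:90903649-90903948, plus strand.
Dusp1: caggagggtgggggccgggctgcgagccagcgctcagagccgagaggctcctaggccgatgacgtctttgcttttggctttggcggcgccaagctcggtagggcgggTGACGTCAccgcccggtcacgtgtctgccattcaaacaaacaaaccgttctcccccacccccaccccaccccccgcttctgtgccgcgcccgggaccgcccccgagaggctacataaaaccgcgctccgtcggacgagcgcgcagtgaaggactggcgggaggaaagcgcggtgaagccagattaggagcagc
Plk2: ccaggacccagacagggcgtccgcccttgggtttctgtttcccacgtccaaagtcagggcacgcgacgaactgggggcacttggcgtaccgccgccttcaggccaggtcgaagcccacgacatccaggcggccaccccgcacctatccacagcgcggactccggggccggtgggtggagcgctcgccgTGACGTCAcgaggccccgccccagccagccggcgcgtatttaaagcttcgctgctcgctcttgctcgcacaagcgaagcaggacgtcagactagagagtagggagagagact
Ppp1r15a: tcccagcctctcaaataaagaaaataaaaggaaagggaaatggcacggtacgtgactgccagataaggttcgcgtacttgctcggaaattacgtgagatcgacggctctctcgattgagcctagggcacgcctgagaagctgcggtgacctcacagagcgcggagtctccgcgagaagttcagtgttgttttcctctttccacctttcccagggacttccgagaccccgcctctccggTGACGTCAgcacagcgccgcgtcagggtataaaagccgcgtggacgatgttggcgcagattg
Dusp5: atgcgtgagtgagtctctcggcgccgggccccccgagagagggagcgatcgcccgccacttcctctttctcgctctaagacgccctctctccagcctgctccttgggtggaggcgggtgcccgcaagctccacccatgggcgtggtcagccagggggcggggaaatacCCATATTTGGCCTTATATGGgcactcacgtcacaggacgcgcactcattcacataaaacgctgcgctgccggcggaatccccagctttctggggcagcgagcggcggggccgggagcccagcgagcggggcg
Zfp36: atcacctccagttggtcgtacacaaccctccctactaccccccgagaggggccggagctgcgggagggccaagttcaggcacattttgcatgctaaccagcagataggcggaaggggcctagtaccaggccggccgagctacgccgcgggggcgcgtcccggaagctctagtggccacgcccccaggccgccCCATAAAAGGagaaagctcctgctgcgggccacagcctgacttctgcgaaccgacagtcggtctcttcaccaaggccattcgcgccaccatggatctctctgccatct
Hspa1a: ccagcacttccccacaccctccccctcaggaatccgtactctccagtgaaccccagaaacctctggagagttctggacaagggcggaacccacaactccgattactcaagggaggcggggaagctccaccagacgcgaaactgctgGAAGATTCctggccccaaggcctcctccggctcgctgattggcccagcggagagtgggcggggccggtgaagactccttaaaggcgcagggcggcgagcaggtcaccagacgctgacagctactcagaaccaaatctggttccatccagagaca
Hspb1: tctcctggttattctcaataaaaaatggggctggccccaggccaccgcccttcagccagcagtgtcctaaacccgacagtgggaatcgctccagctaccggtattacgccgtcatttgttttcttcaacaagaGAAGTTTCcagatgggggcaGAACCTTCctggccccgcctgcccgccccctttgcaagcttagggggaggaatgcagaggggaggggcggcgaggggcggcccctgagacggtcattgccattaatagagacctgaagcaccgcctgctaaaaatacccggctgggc
Cxcl2: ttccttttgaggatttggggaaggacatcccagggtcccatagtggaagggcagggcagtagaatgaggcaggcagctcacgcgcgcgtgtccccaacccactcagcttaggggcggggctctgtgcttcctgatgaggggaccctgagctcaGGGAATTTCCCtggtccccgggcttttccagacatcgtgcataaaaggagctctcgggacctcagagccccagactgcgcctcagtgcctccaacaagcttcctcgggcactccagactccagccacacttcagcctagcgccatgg

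Of the 24 called immediate-early genes 22 had a promoter in the RefSeq table. A cyclic AMP response element was found in 5 of them (22.7%: Btg2, Dusp1, Maff, Plk2 and Ppp1r15a), against 3.74% of 8497 tested genes and 2.03% of all 27025 genes with a promoter of the same length. A serum response element was found in 2 (9.09%: Dusp5, with 2 adjoining matches, and Zfp36), against 1.53% of tested genes. An NF-kB site was found in 5 (22.7%), against 12.3% of tested genes, and an AP-1 site in 1 (4.55%), against 5.71%. Among NF-kB targets 7 of 29 held an AP-1 site (24.1%). The heat-shock element was present in all 3 called heat-shock genes, in 11 of 20 heat-shock genes with a promoter (55.0%) and in 7.03% of tested genes. An NF-kB site was also present in 2 of the 3 called heat-shock genes. The NF-kB site was present in 4 of 6 called NF-kB targets and in 16 of 29 list members (55.2%), against 12.3% of tested genes. These matches describe letters in a short window; the promoters of Fos, Junb, Jun and Klf2 had no match to the first 2 motifs within it.

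Of 27 NF-kB targets and cytokines tested 7 were called, all lower, against 2.63% of all tested genes called lower, with a median of -0.65. Ccl3, which encodes the chemokine MIP-1alpha, stood at 67.4, 63.9, 12.8 and 15.8 FPKM in replicates 1 and 2 and at 7.28 and 0.889 FPKM in replicate 3 (-3.01, SE 0.21, adjusted p = 0.00072). Ccl4, its neighbour, stood at 269, 140.0, 98.9 and 113 FPKM against 27.8 and 11.3 FPKM (-2.94, SE 0.30, adjusted p = 0.0043). The annotated spans of Ccl3 and Ccl4 overlap, so their reads may be shared, but both had the same order of libraries, with the wild-type library above the Uhrf1-/- library of its replicate number. Cxcl2, a neutrophil-attracting chemokine, stood at 6.26, 8.05, 4.23 and 4.98 FPKM and was listed at 0 in both replicate 3 libraries and in the LK library (adjusted p = 0.0014). Ltb, which encodes lymphotoxin beta, stood at 281, 157, 162 and 146 FPKM against 30.6 and 37.1 FPKM (-2.38, SE 0.31, adjusted p = 0.011). Tnf itself stood at 21.1, 18.0, 16.6 and 15.01 FPKM against 4.52 and 5.08 FPKM (-1.68, SE 0.22, adjusted p = 0.012). For Ltb and Tnf the 2 replicate 3 libraries were close to each other and below all 4 others. The interferon-inducible chemokine gene Cxcl10 (-1.81, adjusted p = 0.0066) and the feedback inhibitor gene Tnfaip3 (-1.08, adjusted p = 0.036) completed the 7. Without either replicate 3 library none of the 27 was called, with medians of -0.64 (without wild-type) and -0.72 (without Uhrf1-/-). Without wild-type replicate 1 or 2, 12 were called lower. Cxcl2 and Tnfaip3 passed the filter on low values only through replicates 1 and 2. Without that filter 5 of 38 members were called, all lower, with a median of -0.44. Nfkbia, the inhibitor that NF-kB induces first, stood at 179, 96.3, 137 and 126 FPKM against 39.3 and 60.8 FPKM and missed the threshold (-1.41, adjusted p = 0.052). The subunit genes did not pass, with Rela at -0.11, Nfkb1 at -0.06 and Nfkb2 at 0.19.

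Cytokine feedback genes had 3 calls among 15 tested, all lower, against 2.63% of all tested genes called lower. The median was -0.54, with -0.08 in wild-type and -0.44 in Uhrf1-/- cells alone. Socs1, which encodes an inhibitor of Janus kinases, stood at 14.2, 10.6, 29.4 and 32.2 FPKM in replicates 1 and 2 and at 1.85 and 3.60 FPKM in replicate 3 (-2.50, SE 0.24, adjusted p = 0.0034). It was higher in Uhrf1-/- than in wild-type cells within replicates 1 and 2 and fell below both in replicate 3. The activation marker Cd69 stood at 36.2, 55.1, 24.8 and 31.9 FPKM against 10.3 and 3.36 FPKM (-2.38, SE 0.28, adjusted p = 0.0066), and the kinase gene Pim3 was also lower (-1.17, adjusted p = 0.033). Socs2 (0.20, adjusted p = 0.62), Socs3 (-0.54, adjusted p = 0.26) and Cish (0.29, adjusted p = 0.47) did not pass.

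In the heat-shock list 3 of 25 tested genes were called, all lower, against 2.63% of all tested genes called lower. The median was near that of all genes, at -0.10. All 3 called genes passed the filter on low values only through replicates 1 and 2, where they are high. Without that filter 2 of 26 were called, both lower, with a median of -0.13. Hspa1a, an inducible HSP70 gene, stood at 19.1, 15.4, 11.3 and 9.96 FPKM in replicates 1 and 2 and at 0 and 0.123 FPKM in replicate 3 (-3.78, SE 0.25, adjusted p = 0.00065). Hspa1b, a nearly identical neighbour with which it may share reads, stood at 18.8, 17.1, 10.1 and 12.7 FPKM against 0.182 and 0.336 FPKM (-3.60, SE 0.25, adjusted p = 0.00074). The levels correspond to between 300 and 800 estimated reads for either gene in each library of replicates 1 and 2 and to at most 14 in replicate 3. The small heat-shock protein gene Hspb1 stood at 8.88, 1.47, 4.19 and 4.86 FPKM and was listed at 0 in both replicate 3 libraries (adjusted p = 0.042). Among members that did not pass were the constitutive HSP70 gene Hspa8 (0.25, adjusted p = 0.76), the HSP90 genes Hsp90aa1 (0.36, adjusted p = 0.61) and Hsp90ab1 (0.75, adjusted p = 0.39), and the co-chaperone genes Dnajb1 (-0.80, adjusted p = 0.087) and Bag3 (-0.10, adjusted p = 0.87), which stress also induces. Hsph1, an HSP70 co-chaperone, lay higher in both replicate 3 libraries, at 34.1 and 31.9 FPKM against 12.9, 17.4, 18.5 and 17.1 FPKM, and did not pass (0.97, adjusted p = 0.060). With the length and GC trends described below removed, Hsph1 was called higher (0.86, adjusted p = 0.045).

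In 7 further lists of stress and signalling programmes 1 or 2 members each were called, to be read against 3.91% of all tested genes (2.63% lower, 1.28% higher). The unfolded protein and integrated stress response list had 2 of 27 lower, with a median of -0.31. One was Cebpb, a transcription factor of myeloid and inflammatory genes, at 287, 231, 273 and 282 FPKM against 16.3 and 16.2 FPKM (-3.96, SE 0.22, adjusted p = 0.00050), and the other Trib3 (-1.19, adjusted p = 0.032). The effectors Atf4 (-0.50, adjusted p = 0.32), Ddit3 (-0.13, adjusted p = 0.85) and Hspa5 (0.03, adjusted p = 0.97) did not pass. The oxidative stress list had 1 of 23, Gclm of glutathione synthesis (-1.34, adjusted p = 0.045), and the hypoxia and glycolysis list 1 of 30, the prolyl hydroxylase gene Egln3 (-1.38, adjusted p = 0.017). The p53 targets had 2 of 15, the death gene Bbc3 (-2.04, adjusted p = 0.0066) and Phlda3 (-1.40, adjusted p = 0.026), while Cdkn1a, at 7.34, 5.49, 14.0 and 10.7 FPKM against 2.41 and 5.83 FPKM, missed the threshold (-1.03, adjusted p = 0.055). Among 12 glucocorticoid-induced genes Dusp1 and Cebpd (-2.54, adjusted p = 0.0012) were called, and Fkbp5 (0.25, adjusted p = 0.52) and Tsc22d3 (-0.64, adjusted p = 0.28) were not. Cebpd and Trib3 passed the filter on low values only through replicates 1 and 2, where they are higher. Of 12 clock genes 1 was lower, Nfil3 (-1.30, adjusted p = 0.040). Of 38 interferon-stimulated genes 1 was called, Dtx3l, which was higher (0.94, adjusted p = 0.047); the list's median was -0.03, made of 0.34 in wild-type and -0.33 in Uhrf1-/- cells.

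**Figure D3:**
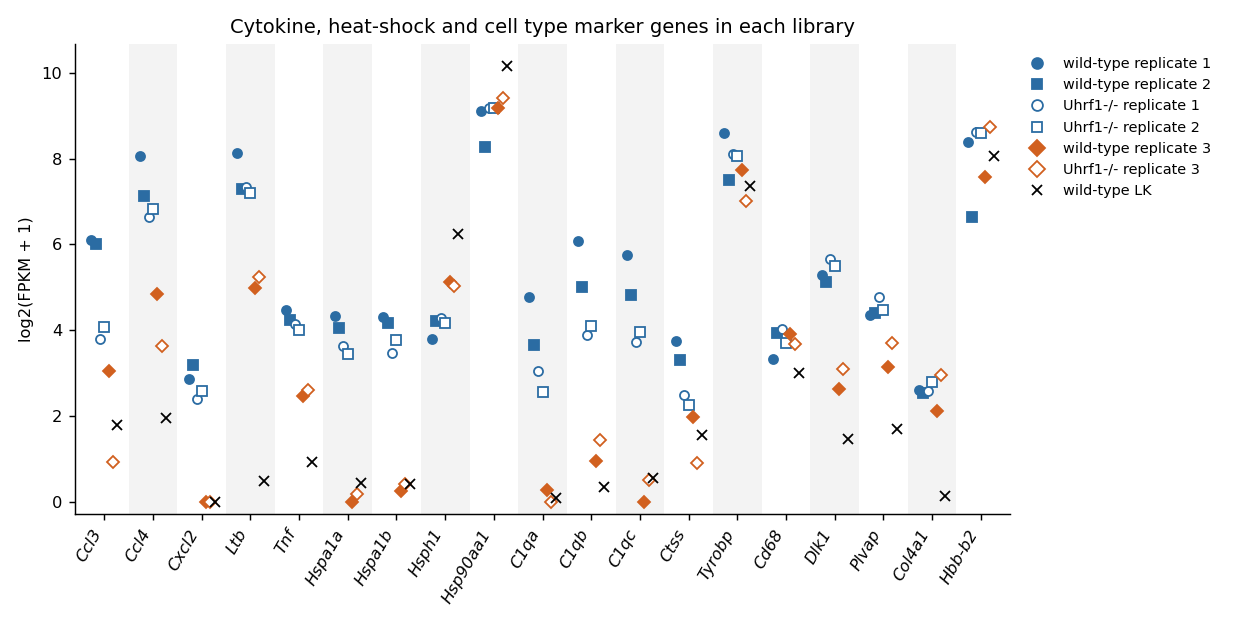
Level of cytokine, heat-shock and cell type marker genes in each library as log2(FPKM + 1), with the symbols of the plot of immediate-early genes. Both Hspa1 genes are near 0 in both replicate 3 libraries and in the LK library and the C1q genes are low there, while Hsp90aa1, Cd68, Col4a1 and Hbb-b2 show no such separation.

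Markers of accompanying cells differed mainly in the C1q genes. C1qa (Entrez gene 12259, chromosome 4, 136895916 to 136898844 of GRCm38) stood at 26.3, 11.6, 7.23 and 4.86 FPKM in replicates 1 and 2 and at 0.199 and 0 FPKM in replicate 3, a difference of -3.37 (SE 0.39, adjusted p = 0.0066). C1qb stood at 67.0, 31.4, 13.9 and 16.1 FPKM against 0.922 and 1.71 FPKM (-3.58, SE 0.49, adjusted p = 0.013), and C1qc at 53.2, 27.1, 12.3 and 14.4 FPKM against 0 and 0.411 FPKM (-4.31, SE 0.46, adjusted p = 0.0050). All 3 had their highest level in wild-type replicate 1 and were between 0 and 24 estimated reads in each replicate 3 library. Of 35 macrophage markers 34 were in the table and 12 were tested. Of the 12, 4 were called, all lower, against 2.63% of all tested genes called lower. They were the C1q genes and the cathepsin gene Ctss (-1.51, adjusted p = 0.017), and the median over the 12 was -0.76. C1qa and C1qc passed the filter on low values only through replicates 1 and 2, where they are high, so the count and the median describe only the members that could be tested. Without that filter 0 of 34 were called and the median was -0.42. The count was 8 without wild-type replicate 1, 6 without wild-type replicate 2 and 0 without either replicate 3 library. The list summed to 1002, 514, 631 and 609 FPKM in replicates 1 and 2, to 423 and 300 FPKM in replicate 3 and to 435 FPKM in LK cells. Much of that sum came from Tyrobp and Fcer1g, signalling adaptors that other myeloid cells also carry; Tyrobp was at 389, 179.9, 273 and 267 FPKM against 212 and 128 FPKM (-0.70, adjusted p = 0.33). Other defining macrophage markers were too low to test even in replicates 1 and 2, with mean levels below 1 FPKM. Emr1, the gene of the macrophage surface marker ADGRE1, was at 1.41, 1.57, 0.306 and 0.188 FPKM against 0.0483 and 0.635 FPKM. Cd5l was at 1.04, 1.02, 0.640 and 1.03 FPKM against 0 and 0.201 FPKM. Timd4 was at most 0.544 FPKM and was listed at 0 in both replicate 3 libraries. Cd68 did not differ beyond the spread (0.05, adjusted p = 0.92). Whether macrophages or their RNA contribute to the immediate-early and chemokine differences was not tested.

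Lists of other cell types had fewer calls, to be read against 2.63% of all tested genes called lower and 1.28% called higher. Of 9 hepatoblast markers tested 1 was called, and the list did not share its direction, with a median of 0.01 and 4 of 9 below 0. The called gene was Dlk1, a membrane protein of hepatoblasts. It stood at 38.0, 33.7, 49.7 and 44.1 FPKM against 5.14 and 7.56 FPKM (-2.53, SE 0.20, adjusted p = 0.0013). The albumin gene Alb was at most 1.72 FPKM in any LSK library and Afp did not pass (-0.53, adjusted p = 0.33). Of 15 endothelial markers 1 was called, Plvap (-1.07, adjusted p = 0.042), and the endothelial genes that stem cells share, such as Tek (-0.25, adjusted p = 0.48) and Pecam1 (0.05, adjusted p = 0.93), did not pass. None of 4 tested stromal markers was called, nor any of 24 erythroid, 10 megakaryocyte or 4 mast cell and basophil genes; the erythroid median was -0.55, from -0.82 in wild-type and -0.17 in Uhrf1-/- cells. The most abundant tested members of the stromal, erythroid and mast cell lists were the collagen gene Col4a1 (-0.10, adjusted p = 0.84), the globin gene Hbb-b2 (0.09, adjusted p = 0.93) and the mast cell protease gene Cpa3 (0.47, adjusted p = 0.44). Of 19 lymphoid genes 1 was called, the chemokine receptor gene Ccr7 (-1.15, adjusted p = 0.024). The neutrophil and monocyte list had 1 call in each direction among 22. Spi1, which encodes the myeloid and lymphoid factor PU.1, was lower, at 385, 250.5, 324 and 287 FPKM against 81.9 and 112 FPKM (-1.68, SE 0.30, adjusted p = 0.032). Cebpa, needed for granulocyte formation, was higher, at 2.01, 1.95, 3.86 and 4.38 FPKM against 4.95 and 8.74 FPKM (0.96, SE 0.19, adjusted p = 0.041). The LK library held 38.5 FPKM of Spi1 and 13.3 FPKM of Cebpa, beyond replicate 3 in both directions.

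**Figure D4:**
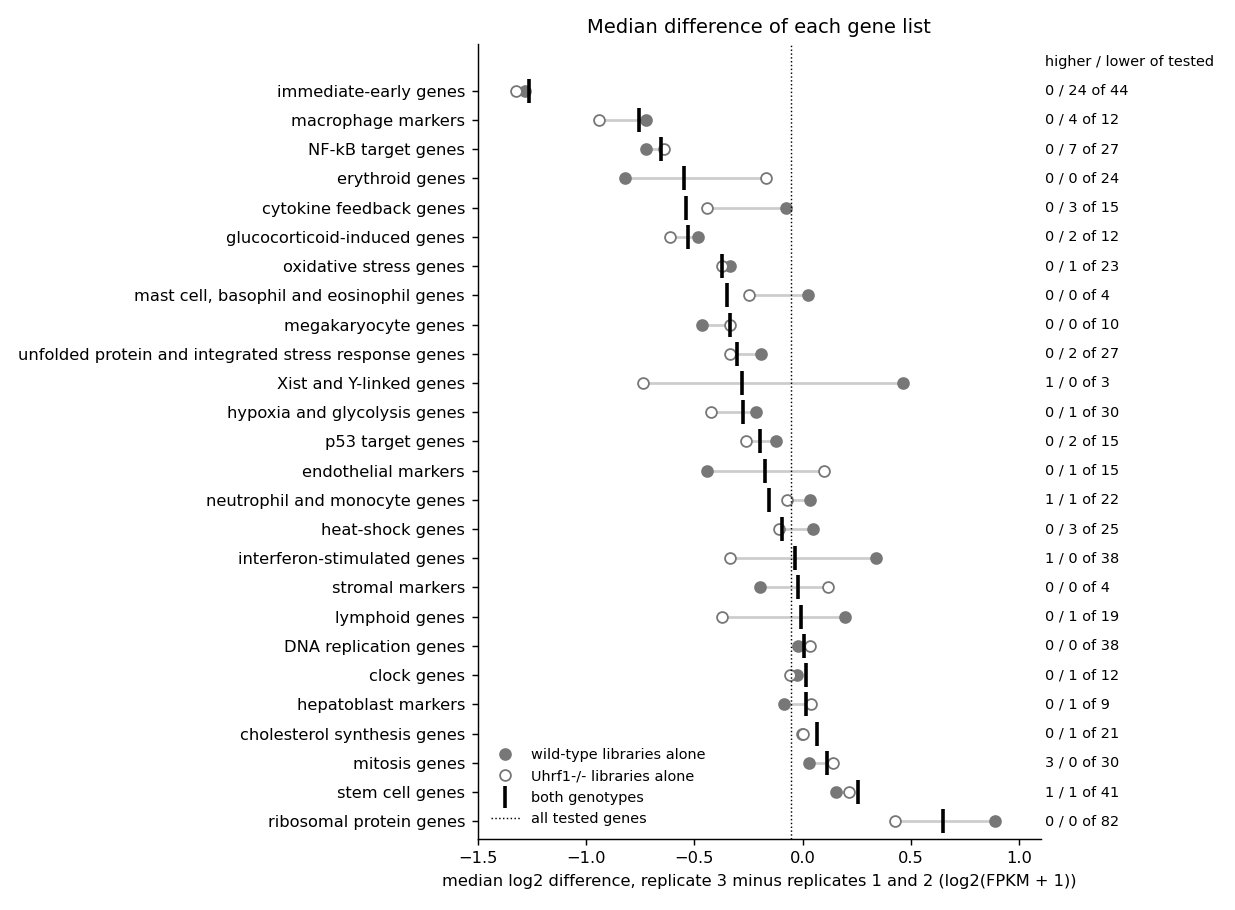
Median difference between replicate 3 and replicates 1 and 2 for the tested members of each list, in wild-type libraries alone (filled), in Uhrf1-/- libraries alone (open) and together (bar), with the count of members called higher and lower on the right. Immediate-early genes lie lowest at -1.26 and ribosomal protein genes highest at 0.65; the dotted line is the median of all tested genes at -0.05.

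Among the programmes of the sorted cells themselves, 2 of 41 stem cell genes were called, near the 3.91% of all tested genes, with a median of 0.25. Igf2bp1, an RNA-binding protein of the fetal programme, was higher at 10.6, 9.44, 9.85 and 9.87 FPKM against 24.99 and 22.0 FPKM (1.16, SE 0.20, adjusted p = 0.031), and the growth suppressor gene Ndn was lower (-1.18, adjusted p = 0.029). None of 38 DNA replication genes was called, with a median of 0.00, and Pcna stood at -0.33 (adjusted p = 0.55). Among 30 mitosis genes 3 were called, all higher, against 1.28% of all tested genes: Mki67, the proliferation antigen (1.25, adjusted p = 0.038), the topoisomerase gene Top2a (1.23, adjusted p = 0.033) and the kinetochore motor gene Cenpe (1.22, adjusted p = 0.027). Other mitotic genes lay in the opposite direction without passing, such as Cdk1 (-1.07, adjusted p = 0.064) and Cenpa (-0.80, adjusted p = 0.11). With trends along transcript length and GC content removed, Mki67 and Top2a were no longer called, and the mitosis list had 1 call higher and 1 lower. Without any 1 of the Uhrf1-/- libraries or without wild-type replicate 3 none of the 30 was called, and without wild-type replicate 1 or 2 the calls were 4 higher and 6 lower or 7 higher and 5 lower. Of 21 cholesterol synthesis genes 1 was called, Srebf2 (-1.74, adjusted p = 0.0066), against 3.91% of all tested genes. Xist, the RNA that coats the inactive X chromosome and whose span overlaps Tsix, was higher, at 4.62, 2.26, 2.33 and 1.91 FPKM against 9.06 and 8.55 FPKM (1.42, SE 0.27, adjusted p = 0.036). The Y-linked genes Ddx3y (-0.28, adjusted p = 0.57) and Eif2s3y (-0.30, adjusted p = 0.66) did not pass and were above 1 FPKM in every library. Of 82 ribosomal protein genes none was called at the adjusted threshold, but 76 had a difference above 0 and the median was 0.65. Without wild-type replicate 2, the library with the lowest ribosomal share, the median was 0.24, 63 genes lay above 0, and 3 were called higher and 3 lower. Rpl41, the most abundant, differed by 1.65 (adjusted p = 0.33).

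Most called genes belonged to no list: 55 of the 279 lower and 7 of the 136 higher genes did. Tgfb1 (Entrez gene 21803, chromosome 7, 25687002 to 25705077 of GRCm38), a cytokine that holds stem cells quiescent, stood at 193, 165, 229 and 220.2 FPKM in replicates 1 and 2 and at 2.91 and 9.10 FPKM in replicate 3 (-5.00, SE 0.28, adjusted p = 0.00050). The potassium channel gene Kcnk12 stood at 55.4, 31.4, 58.3 and 44.5 FPKM against 1.30 and 1.20 FPKM (-4.39, SE 0.29, adjusted p = 0.00065). 1110008F13Rik stood at 333, 207, 301 and 348 FPKM against 13.6 and 15.8 FPKM (-4.22, SE 0.27, adjusted p = 0.00065). In each gene both replicate 3 libraries lay far below the 4 others, and LK cells had 2.63, 0.724 and 24.9 FPKM of the 3 genes in that order.

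Among the higher genes, Pigr (Entrez gene 18703, chromosome 1, 130826684 to 130852249 of GRCm38), the receptor that carries polymeric immunoglobulin across epithelia, was close to absent in replicates 1 and 2 at 0.231, 0.0294, 0.0842 and 0.110 FPKM and stood at 7.49 and 10.8 FPKM in replicate 3 (3.17, SE 0.21, adjusted p = 0.00065). Ass1, the urea cycle enzyme argininosuccinate synthase, stood at 10.4, 2.19, 12.5 and 11.04 FPKM against 30.5 and 49.3 FPKM (2.19, SE 0.46, adjusted p = 0.047). The translational repressor gene Gigyf1 stood at 5.96, 1.79, 3.90 and 3.82 FPKM against 15.2 and 17.7 FPKM (1.91, SE 0.35, adjusted p = 0.033). In Ass1 and Gigyf1 wild-type replicate 2 was the lowest library, and the replicate 3 pair was the highest of the LSK libraries. Rin1 (1.82, adjusted p = 0.0043), a Ras effector, Ssh3 (1.78, adjusted p = 0.0043), a cofilin phosphatase, Tatdn2 (1.98, adjusted p = 0.0066) and the vault RNA gene Vaultrc5 (2.14, adjusted p = 0.027) were higher too. Nanog (1.95, adjusted p = 0.0032) and the pseudogenes Gm12504 and Gm5176 are uncertain, since reads of near-identical copies elsewhere could have been counted there. Pigr, Rin1, Ssh3 and Nanog passed the filter on low values only through replicate 3, where they are high, so their calls and ranks are not free of that selection. Of 63 named genes with a RefSeq match 20 overlapped another annotated gene, and the strand setting of the counting is not stated, so reads of such pairs cannot be told apart.

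Transcript length and GC content moved with the difference and stand beside every result above. In 10 equal bins of 10197 genes ordered by transcript length, the median difference ran from -0.29 in the shortest and -0.35 in the next bin to 0.35 in the longest. Along GC content it ran from 0.05 in the lowest bin to -0.19 in the highest. Genes called lower had a median length of 2128 bases and a GC content of 54.6%, genes called higher 5560 bases and 46.4%, and all tested genes 3205 bases and 49.96%. In the shortest bin wild-type replicate 2 had a median deviation of -0.58 from the mean of the 6, where the 3 other libraries of replicates 1 and 2 had 0.26 to 0.42. Along GC content wild-type replicate 3 fell and Uhrf1-/- replicate 3 rose, to -0.33 and 0.09 in the highest bin, so the GC trend was not common to the pair. With both trends removed from each library, an alternative chosen after seeing the data, 345 of 10197 genes were called (3.38%), 107 higher and 238 lower. Of the 385 genes called before that had both properties 239 were still called, 181 of 268 lower and 58 of 117 higher.

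With both trends removed 21 of 44 immediate-early genes were called lower, with a median of -1.14 against 0.02 for all genes; Ier5 (adjusted p = 0.054), Klf4 (0.064) and Zfp36l1 (0.077) were no longer called. Fos then differed by -4.64 (adjusted p = 0.010), Junb by -3.40 (adjusted p = 0.0034) and C1qa by -2.91 (adjusted p = 0.0040). The GC-rich gene Jund, at 67.1% GC, moved from -4.34 to -3.08, and Kcnk12 from -4.39 to -2.86. Among the other named genes the calls that ended were those of Phlda3 (adjusted p = 0.25), Plvap (0.16), Trib3 (0.091), Pim3 (0.094), Nfil3 (0.060), Dtx3l (0.063), Xist (0.094), Mki67 (0.064) and Top2a (0.058). Uhrf1 and Hsph1 were not called before and were called higher after the removal. For these genes, whose calls changed, length, GC content and replicate number cannot be told apart.

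**Figure D5:**
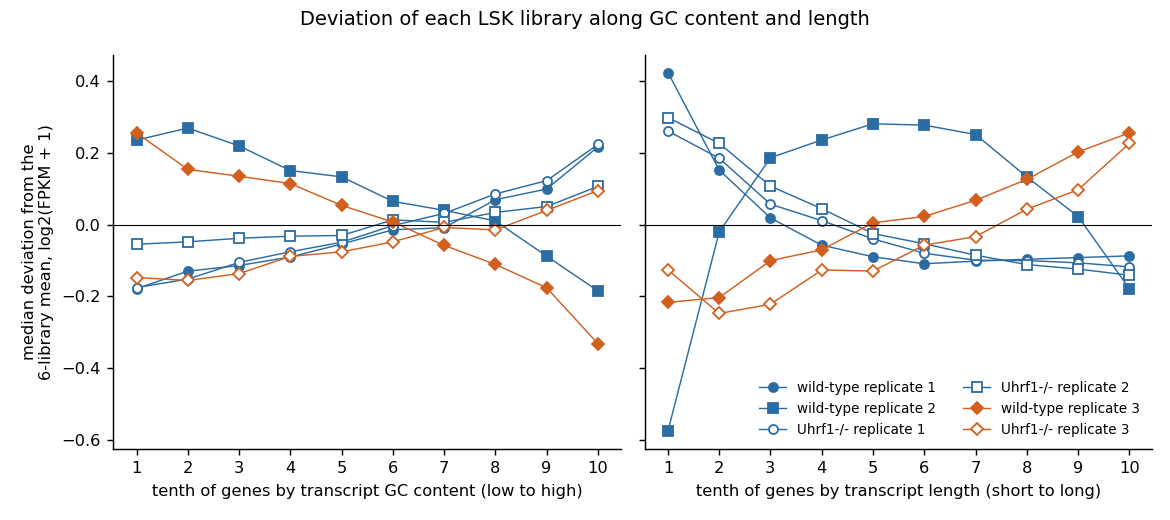
Median deviation of each LSK library from the mean of the 6, in log2(FPKM + 1), over 10 bins of genes ordered by GC content (left) and by transcript length (right). Both replicate 3 libraries (orange) run upward with length, from near -0.2 to near 0.2, and replicates 1 and 2 other than wild-type replicate 2 run downward; along GC content the orange lines go opposite ways.

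The dependence of the difference on genotype was tested for all 10608 genes, and 1 passed (0.00943%), Scarna17, with 297 genes at an unadjusted p below 0.05. The immediate-early differences within each genotype were as follows: Fos differed by -6.38 in wild-type and -3.41 in Uhrf1-/- cells, Klf2 by -6.27 and -4.26, and Zfp36 by -4.67 and -4.51. None of these passed the test of the genotype dependence. With 1 replicate 3 library per genotype that test had little power, so the genotypes may still differ. The list's median was -1.28 in wild-type and -1.32 in Uhrf1-/- cells.

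The single LK library lay on the side of replicate 3 for most called genes. Its log2 level was nearer to the replicate 3 mean than to the mean of replicates 1 and 2 in 362 of 415 called genes (87.2%), against 58.4% of all tested genes. Among the 24 called immediate-early genes this held for 23. With the length and GC trends removed the shares were 78.2% and 57.6%. The LK library held 1.41 FPKM of Fos, 8.09 FPKM of Junb, 0.598 FPKM of Egr1 and 4.85 FPKM of Zfp36, each below or within the replicate 3 pair. It also held 0.260 FPKM of C1qb and 0.332 FPKM of Hspa1b. LK cells differ from LSK cells in type, so cell type and the condition of the sort cannot be told apart for that library, and with 1 library there is no test.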

How the data were processed

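RNA of sorted cells was sequenced with the TruSeq kit, per the labels' protocols. Groups and replicate numbers came from the sample titles. The deposited table holds FPKM and a count column for 22680 genes. The count values, deposited by the authors, are not whole, so they were treated as a scaled count signal and no count model was run. FPKM was used as the authors deposited it. Per the submitters' processing notes, Cufflinks 2.1.1, TopHat2 2.0.9 and mm10 were involved, with no roles stated; nothing used here states the annotation or strand setting.

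Replicate 3 was compared with replicates 1 and 2 over 6 LSK libraries with limma 3.58.1 (R 4.3.3; trend and robust moderation, two-sided, Benjamini-Hochberg adjustment, threshold 0.05) on log2(FPKM + 1), with genotype as covariate, keeping genes whose mean reached 1 FPKM. A second fit added the interaction of genotype and replicate 3. The script was tested on simulated data. The members, gene lists and tests were chosen with earlier results of these data known. Named genes are the markers, the 10 largest called differences in each direction outside the range of the other libraries, up to 4 called members of each list (or, with none, its most abundant member) and genes passing the interaction; other list members were named for their role after their values were seen. The result of 1 gene under this rule is not reported here. Ribosomal protein genes were matched by symbol, leaving out kinases and pseudogenes, which is narrower than first planned. Sequence properties are those of the longest annotated transcript, and coordinates and promoters those of RefSeq for GRCm38.p6, matched by gene ID for 22235 rows. Alternatives were other pseudocounts, filters, scalings and moderation, leaving out libraries, and removal of GC and length trends by splines.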

Additional observations from a re-analysis of the deposited data

Results flagged for a closer look

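The dependence on genotype passed the threshold for 1 gene. Scarna17, a small Cajal body RNA, was listed at 93.6 FPKM in Uhrf1-/- replicate 3 and at 0 in the 5 other LSK libraries and in the LK library, which gave an interaction of 6.56 on the log2(FPKM + 1) scale (limma adjusted p = 0.040). It was looked at again because the difference between replicate 3 and the others passed a test of unequal size in the 2 genotypes. The level rests on 2 estimated reads over a very short transcript.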

How the results depend on the processing

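The count of 415 called genes stayed within 1.5 times under another pseudocount, a filter at 5 FPKM, median-of-ratios scaling, count values scaled to equal totals, plain moderation, no genotype covariate, no libraries numbered 2, and removal of the GC and length trends, which was chosen after seeing the data (282 to 512). The share of higher calls moved from 136 of 415 to 227 of 495 (268 lower) with count values scaled to equal totals, to 56 of 282 with the filter at 5 FPKM, and to 94 of 512 without the libraries numbered 2. The count was 90 of 16724 genes without a filter on low values and 1291 without both libraries numbered 1. Leaving out single libraries gave 1 to 1831 calls; without wild-type replicate 3, 1291 genes had an unadjusted p below 0.05, and without Uhrf1-/- replicate 3, 1219 had. In every setting all called genes tested kept their sign. The settings share libraries and the genes were called for their difference in them, so the kept sign is no separate support. Of 55 named called genes, 25 stayed called without a filter, 0 without wild-type replicate 3, 7 without Uhrf1-/- replicate 3, 33 and 30 without Uhrf1-/- replicates 1 and 2, and 42 to 55 in the other settings. Not all 55 were tested in each setting: 42 of 43 stayed called with the filter at 5 FPKM and 43 of 52 with the trends removed. The dependence on genotype had 1 call under median-of-ratios scaling and 0 under a pseudocount of 0.1, without a filter, at 5 FPKM and with count values scaled to equal totals (319, 1094, 126 and 284 genes at an unadjusted p below 0.05). The cause was not tested. No paired analysis was possible because the replicate number is itself the factor compared; genotype enters as the covariate. No count-based test was run, since the deposited counts are not whole. Estimated reads set the limit for genes near 0.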
